A study of Mus musculus with 9 samples.

Results

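The genes described here are 42 genes of collagens and other extracellular matrix components, chosen by their symbols from a table of 13722 genes measured in mouse plantaris muscle. Each symbol occurred in 1 row of the table, and all 42 were among the 13309 genes tested, those with a mean of at least 0.5 RPKM (reads scaled by exon length and by the total of the library). They comprise 6 fibrillar collagen chains, 6 basement membrane genes, 3 collagen VI chains, 4 fibril-associated and short-chain collagens, 6 matricellular and adhesive glycoproteins, 4 elastic fibre genes, 4 small leucine-rich proteoglycans, 4 cross-linking and chaperone genes and 5 proteases and protease inhibitors. The members were picked by symbol, with earlier results of these data known.

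The extracellular matrix of muscle surrounds each fibre with a basement membrane of collagen IV and laminin, linked by collagen VI and fibronectin to the connective tissue of collagens I, III and V. Fibroblasts make most of these proteins. Procollagen chains are hydroxylated in the endoplasmic reticulum by enzymes that need oxygen, folded into a triple helix with the help of a dedicated chaperone, secreted, and cross-linked outside the cell by lysyl oxidases. Matrix metalloproteinases cut the finished matrix, and the tissue inhibitors of metalloproteinases restrain them.

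RNA sequencing compared 3 groups of 3 libraries from plantaris, a fast hindlimb muscle, of male C57BL/6J mice (strain tag C57BL/6) aged 3 months. Controls had 0 h of exposure, and the hypoxia groups breathed 8% oxygen for 2 h or 6 h before the muscle was taken. The same 3 control libraries serve both times, so the comparisons with control are not independent, and the effect of exposure and that of elapsed time cannot be told apart. The labels do not state that each library is a separate mouse, so p-values measure only how these libraries spread, which may be technical.

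Recovered reads, summed over genes, ranged from 72706716 to 137097898 per library. Most of these sums exceed the read totals given in the labels, and the same read may enter a sum more than once. The sums therefore serve only to compare depth between libraries. Of the 42 members, 41 had at least 100 recovered reads in every library, the lowest value being 80. The 9 fast muscle fibre markers summed to between 96241 and 113862 RPKM in every library. Values are RPKM in the order of replicates 1 to 3 of each group. Fold changes are on the log2(RPKM + 0.5) scale with the standard error (SE) of the limma fit. Where genes are counted by a lower or higher mean, the mean is on that log2 scale. The mean RPKM can differ in direction, as for Bgn, at 37.6 RPKM in control and 41.1 RPKM at 6 h (log2 -0.028).

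The stretches upstream of 5 members are shown because these genes lie at the ends of the pattern described next. Col1a2 had the highest mean of the collagens, Timp1, Col3a1 and Postn had the 3 widest ranges between libraries, and Timp3 ran against the others. Each line gives 200 bases before the annotated start, from RefSeq on GRCm38.p6 and 5′ to 3′ on the strand of the gene, with capitals for a motif on either strand. The motifs are CCAAT, which binds the factor NF-Y, TATAAA, the TATA box, the GC box core GGGCGG, and the element CAGACA. For Postn the table holds 2 windows, of which 1 is printed.
Col1a2 (chr6:4505418-4505617, plus strand): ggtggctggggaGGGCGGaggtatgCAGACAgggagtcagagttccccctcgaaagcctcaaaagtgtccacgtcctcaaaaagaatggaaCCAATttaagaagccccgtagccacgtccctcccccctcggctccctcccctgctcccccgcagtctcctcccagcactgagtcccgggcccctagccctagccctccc
Col3a1 (chr1:45311338-45311537, plus strand): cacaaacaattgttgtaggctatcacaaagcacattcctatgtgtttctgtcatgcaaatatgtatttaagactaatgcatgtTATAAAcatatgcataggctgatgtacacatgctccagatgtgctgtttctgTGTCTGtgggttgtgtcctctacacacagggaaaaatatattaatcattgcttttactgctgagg
Postn (chr3:54360907-54361106, plus strand): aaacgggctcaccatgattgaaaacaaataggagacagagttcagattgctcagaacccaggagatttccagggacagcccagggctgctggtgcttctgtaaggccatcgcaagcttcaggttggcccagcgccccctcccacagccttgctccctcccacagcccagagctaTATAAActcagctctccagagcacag
Timp1 (chrX:20869966-20870165, plus strand): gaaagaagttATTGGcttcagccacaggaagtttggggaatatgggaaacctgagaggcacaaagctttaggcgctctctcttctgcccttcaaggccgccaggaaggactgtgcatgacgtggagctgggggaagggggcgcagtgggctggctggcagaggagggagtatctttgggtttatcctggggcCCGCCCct
Timp3 (chr10:86300212-86300411, plus strand): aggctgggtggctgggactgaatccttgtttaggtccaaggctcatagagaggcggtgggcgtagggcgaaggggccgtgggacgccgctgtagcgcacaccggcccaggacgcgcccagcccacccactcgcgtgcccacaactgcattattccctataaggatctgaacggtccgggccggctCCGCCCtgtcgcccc
On its own strand Col1a2 held GGGCGG beginning at base -188 from the start, the element CAGACA at -175 and the box CCAAT at -109. Postn had a TATAAA at -26, and Col3a1 had one at -117. Timp1 and Timp3 each had a GGGCGG on the other strand, at -8 and -15.

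In windows from 250 bases before the start to 50 after it, 29 of the 42 members had a promoter in RefSeq, against 27025 genes in all. GGGCGG, the core of a GC box, was in 22 of the 29 member windows (75.86%) and in 38.2% of all genes. CCAAT was in 13 of them (44.83% against 41.06%), CAGACA, the SMAD-binding element, in 10 (34.48% against 23.55%), and TATAAA in 3 (10.34% against 15.67%). These matches are letters in a window and were not tested. The 27025 genes, unlike the members, are not limited to those with a mean of at least 0.5 RPKM here. Col4a1 and Col4a2, the collagen IV chains of every basement membrane, lie head to head. Their annotated transcripts run in opposite directions and share a stretch of 22 bases at their starts, shown because it holds both start sites, with its GGGCGG in capitals.
Col4a1 and Col4a2 (chr8:11312805-11312826, plus strand, GRCm38.p6): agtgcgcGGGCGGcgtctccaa

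Most of the 42 members were high in the same libraries and low in the same libraries, and libraries of one group differed widely. Control replicates 2 and 3 and 6 h replicate 2 were the 3 libraries with the highest level in 37 of the 42 members, which held for 11.1% of all tested genes. The exceptions were Thbs1, Fbln1, Fbln2, Dcn and Timp3. The members summed to 0.211%, 0.339% and 0.358% of all RPKM in the control libraries, to 0.142%, 0.130% and 0.155% at 2 h, and to 0.200%, 0.409% and 0.159% at 6 h. Control replicate 1 and 6 h replicate 1 thus carried about equal shares, and the 2 h libraries were the 3 lowest.

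6 h replicate 2 was the highest library for 26 members, against 21.7% of tested genes, and 2 h replicate 2 the lowest for 22, against 9.70%. Control replicate 1 lay below both other controls in 41 members, Timp3 being the exception, and this order held for 40.4% of tested genes. It lay above every 2 h library in 22 members (28.7% of tested genes), within their range in 14 (39.2%) and below all of them in 6 (32.1%). At 6 h, replicate 2 stood at least 2-fold above both other libraries in 24 members, against 5.90% of tested genes. The other 6 h libraries lay above every 2 h library in 21 members, against 18.8% of tested genes. In bulk tissue, fewer cells of a type and less RNA per cell cannot be told apart.

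**Figure D1:**
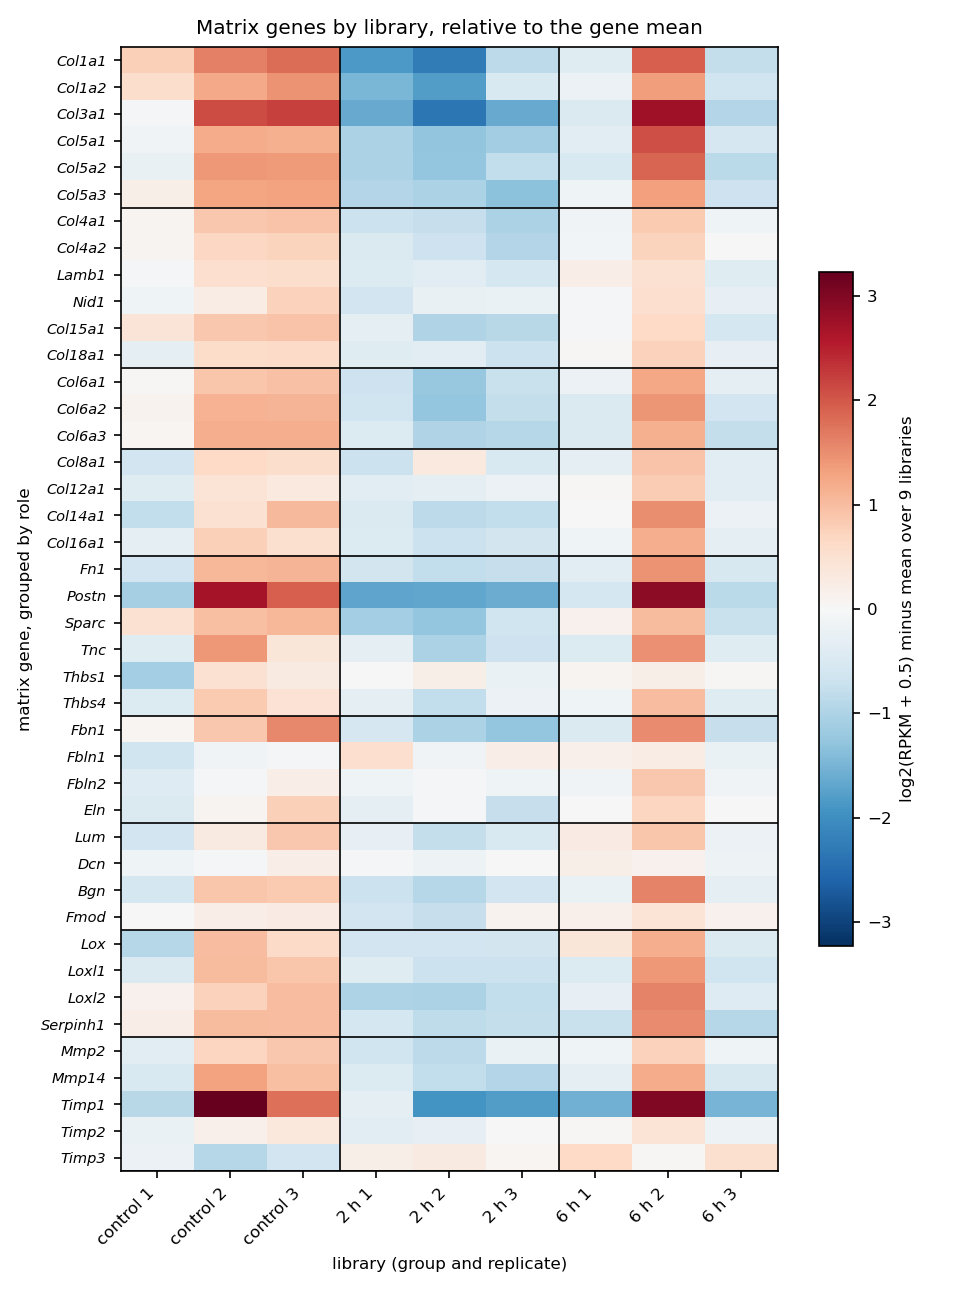
Level of each of the 42 matrix genes (rows, grouped by role) in each of the 9 libraries (columns), as log2(RPKM + 0.5) minus the mean of that gene over the libraries, red above and blue below the mean. Control replicates 2 and 3 and 6 h replicate 2 are red in most rows and the 2 h libraries are blue, while Timp3 in the last row runs the other way.

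No member passed the threshold of an adjusted p of 0.05 in any comparison by limma, so every change below is given as a value. At 2 h against control, 39 of 42 members had a lower mean log2 level (50.1% of tested genes). The members' median log2 fold change was -1.14, against -0.00029 over all tested genes. 0 members were called at 2 h, against 0.774% of tested genes (0.473% higher and 0.301% lower), while 24 members had an unadjusted p under 0.05 and a lower mean (8.92% of tested genes) and 2 a higher mean (11.2%). On the recovered reads edgeR called 3 members, Col4a1, Col4a2 and Col15a1, all lower (0.624% of tested genes). DESeq2, which gave an adjusted p for 39 of the members, called 17 lower (5.24%) and Timp3 higher (5.81%). The control and 2 h libraries did not overlap in 22 members that were lower (12.6% of tested genes) and 1 that was higher, Timp3 (14.9%).

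At 6 h against control, 30 members had a lower mean log2 level (42.6% of tested genes). The members' median log2 fold change was -0.27, against 0.050 over all tested genes. Limma called 0 members, against 1.6% of tested genes (0.999% higher and 0.601% lower), with Col15a1 lower (7.08%) and Timp3 higher (12%) at an unadjusted p under 0.05. edgeR called 0 (2.37% of tested genes) and DESeq2 called Timp3 higher (4.02%). The groups did not overlap in 0 members that were lower (8.99%) and in Timp3, which was higher (16.9%).

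From 2 h to 6 h, 41 of 42 members had a higher mean log2 level and 1 a lower one (42.5% of tested genes were lower). The members' median log2 fold change was 0.85, against 0.047 over all tested genes. Limma called 0 members, against 0.143% of tested genes (0.0676% higher and 0.0751% lower). At an unadjusted p under 0.05, 13 had a higher mean (9.88%) and 0 a lower mean (6.52%). edgeR called 0 (0.601% of tested genes), and DESeq2 called 6 higher (3.48%): Col5a3, Col4a1, Col4a2, Col6a1, Postn and Sparc. The 2 h and 6 h libraries did not overlap in 20 members that were higher (13.7%) and in 0 that were lower (8.97%).

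**Figure D2:**
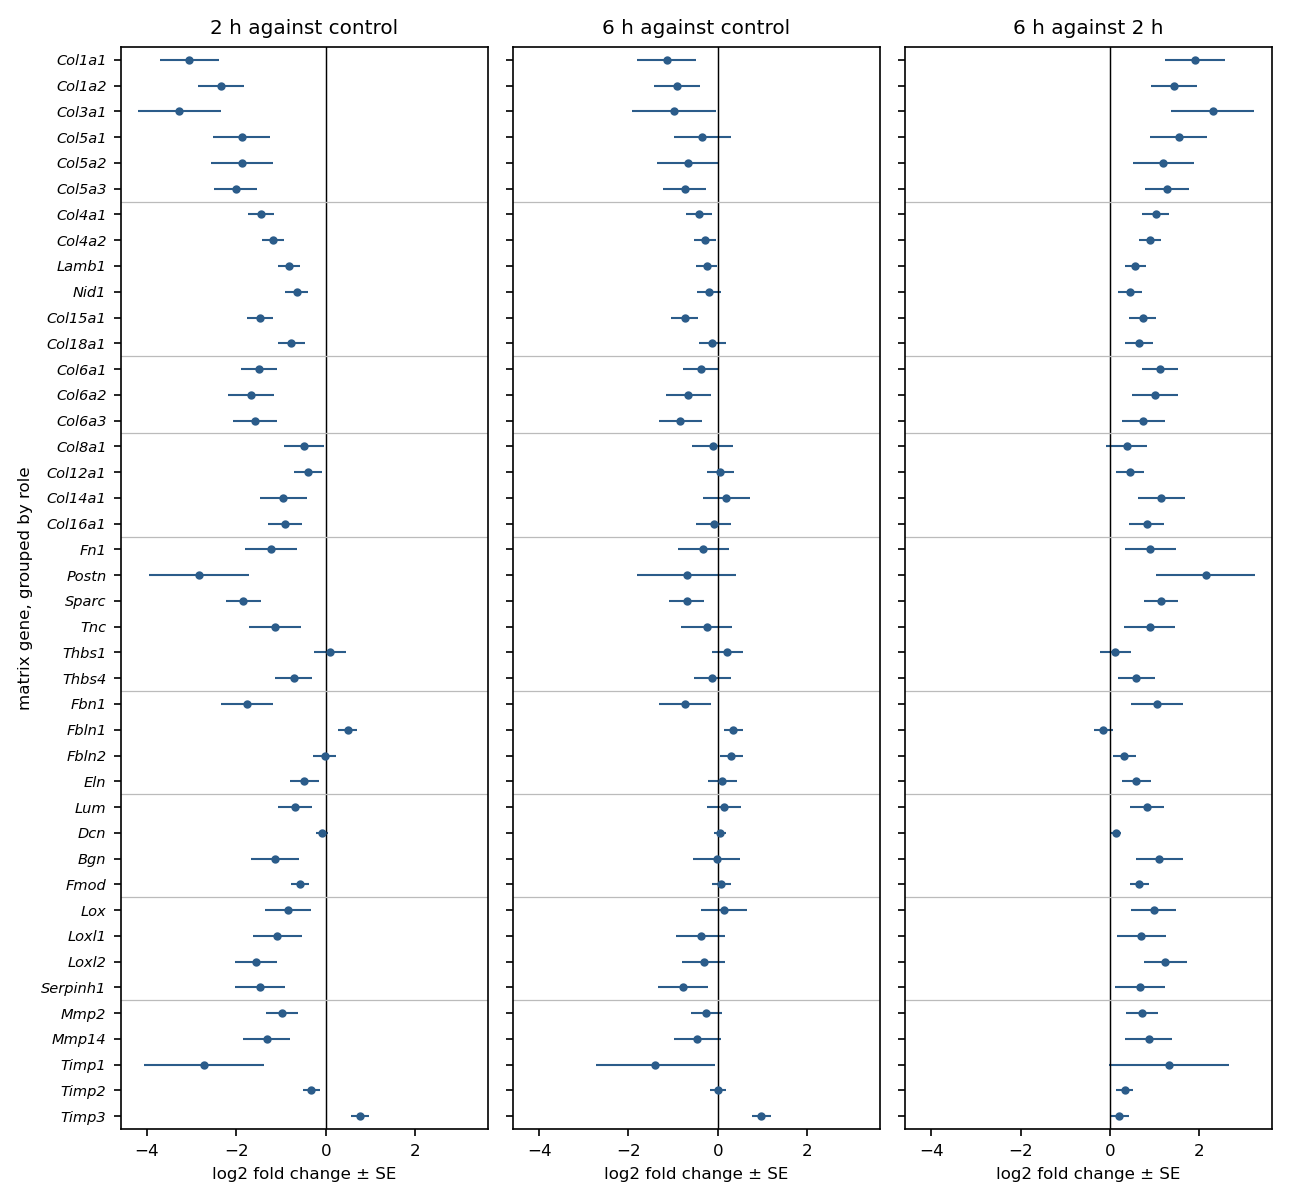
Fitted log2 fold change of each matrix gene (points) with its standard error (bars) in the comparisons of 2 h with control, of 6 h with control and of 6 h with 2 h, with genes in rows grouped by role and the vertical line at 0. At 2 h 39 of the 42 points lie left of 0, at 6 h 30 do, and from 2 h to 6 h 41 lie right of it.

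The fibrillar collagens, the chains of the tissue's load-bearing fibrils, had the lowest 2 h values of any role. All 6 had 2 h libraries below every control, with a median log2 of -2.18. Col1a1, which encodes the alpha 1 chain of collagen I (chromosome 11, 94797538 to 94814356 in mm9), stood at 74.1, 133 and 149.9 RPKM in control, 11.6, 8.57 and 23.6 RPKM at 2 h and 32.4, 164 and 24.9 RPKM at 6 h. Every 2 h library was below every control and every 6 h library, and 6 h replicate 2 was above all controls while the other 6 h libraries were below them. The mean was 119 ± 39.9 RPKM (SD, n = 3) in control and 14.6 ± 7.98 RPKM at 2 h (log2 -3.05 ± 0.66 SE, adjusted p = 0.0644). At 6 h it was 73.8 ± 78.3 RPKM (log2 -1.15 ± 0.66 SE, adjusted p = 0.380).

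Col1a2, the partner chain in collagen I, stood at 76.8, 123 and 143 RPKM in control, 18.3, 14.6 and 36.6 RPKM at 2 h and 45.1, 133 and 33.3 RPKM at 6 h. Again the 2 h libraries were below all controls, but 2 h replicate 3 was above 6 h replicate 3. Its 2 h fold change was smaller than that of Col1a1 (log2 -2.34 ± 0.52 SE, adjusted p = 0.0648), and at 6 h it was log2 -0.91 (adjusted p = 0.369).

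Both chains enter each collagen I molecule in a fixed proportion, whereas the ratio of their RNAs differed between libraries. Col1a1 over Col1a2 was 0.964, 1.09 and 1.05 in control, 0.631, 0.588 and 0.646 at 2 h, and 0.718, 1.23 and 0.749 at 6 h. All 3 libraries at 2 h lay below all 6 others. The difference at 2 h was -0.41 (exact permutation test, two-sided p = 0.1, the smallest that 3 against 3 allows; 0.257 adjusted over 18 ratio tests). Col1a1 overlaps Gm17329 on the opposite strand, which followed it (132 RPKM in control replicate 1 and 19.2 RPKM in 2 h replicate 2), and reads may be shared between them.

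Col3a1, the chain of collagen III that forms fine fibrils beside collagen I, had a range of 36.8-fold between its highest and lowest library (chromosome 1, 45368383 to 45406551 in mm9). It stood at 24.6, 113 and 121 RPKM in control, 8.04, 4.72 and 7.99 RPKM at 2 h and 18.5, 173 and 13.0 RPKM at 6 h. Control replicate 1 was closer to 6 h replicate 1 than to the other controls, and the 2 h libraries were below all 6 others. The 2 h value was log2 -3.28 ± 0.93 SE, adjusted p = 0.111, and the 6 h value was log2 -0.98 ± 0.93 SE, adjusted p = 0.611.

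Col3a1 over Col1a1 was 0.331 in control replicate 1 against 0.847 and 0.807 in the other controls. In control replicate 1, therefore, Col3a1 was further below the other controls than Col1a1 was, by 4.60-fold against 1.80-fold of the lower of the pair. The ratio was 0.696, 0.550 and 0.338 at 2 h and 0.573, 1.06 and 0.522 at 6 h. It differed by -0.13 at 2 h against control (exact permutation p = 0.6), 0.055 at 6 h against control and 0.19 from 2 h to 6 h (exact permutation p = 0.5).

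The collagen V chains start fibril assembly and set fibril width. Col5a1 stood at 3.03, 8.16 and 7.86 RPKM in control, 1.36, 1.07 and 1.25 RPKM at 2 h and 2.48, 15.5 and 2.11 RPKM at 6 h. 6 h replicate 2 was the highest library and the 2 h libraries the 3 lowest (log2 -1.88 ± 0.63 SE, adjusted p = 0.153). The other collagen V chains had 2 h values of log2 -1.87 (Col5a2) and -2.01 (Col5a3), with adjusted p of 0.181 and 0.0773. Col5a1 over Col5a2 was higher at 6 h than in control by 0.18 and than at 2 h by 0.24. Each had an exact permutation p of 0.1, and 0.257 adjusted over the 18 ratio tests. At 2 h against control the difference was -0.064 (exact permutation p = 0.6). Col5a1 overlaps 2810430I11Rik and Gm13372 on the opposite strand.

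**Figure D3:**
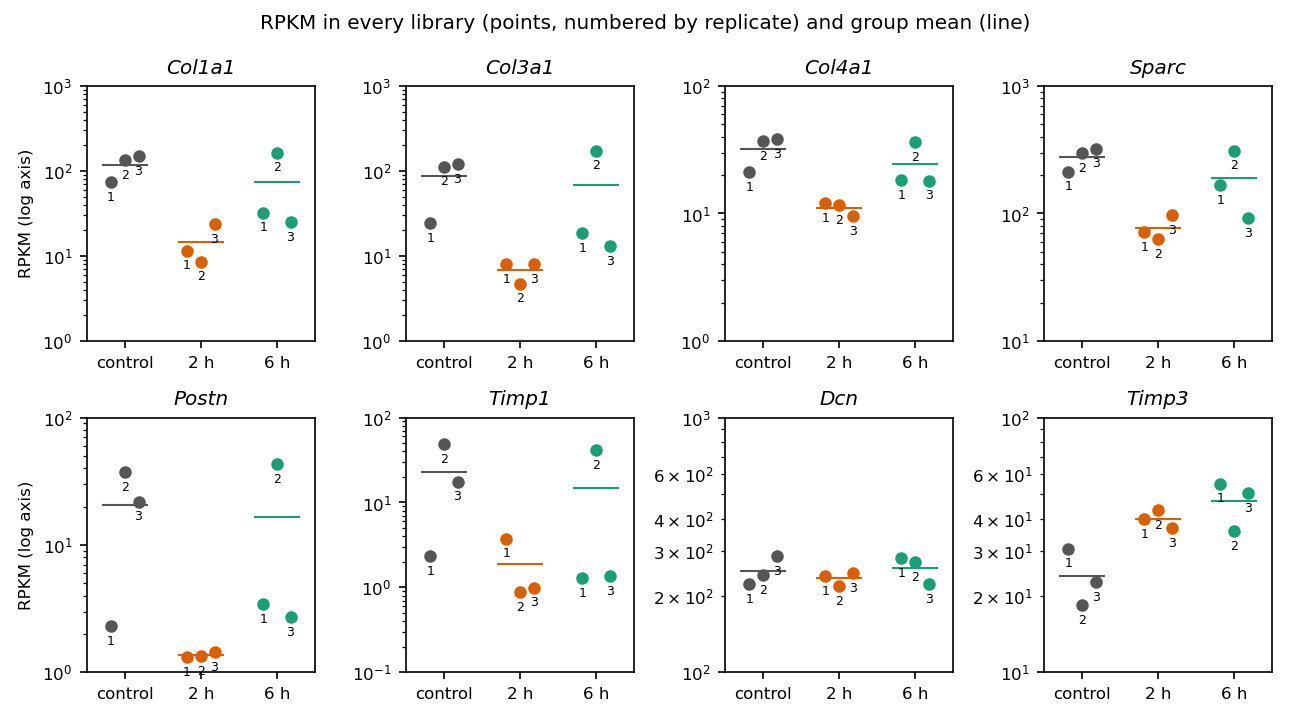
RPKM of 8 matrix genes in every library (points, numbered by replicate, on a log axis) with the group mean as a line, for control, 2 h and 6 h. In Col1a1, Col3a1, Col4a1, Sparc and Postn the 2 h points lie below the control points, in Timp1 replicate 1 of both control and 2 h lies between the extremes, Dcn varies little, and the hypoxia points of Timp3 lie above its controls.

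The basement membrane genes varied less between libraries than the fibrillar collagens and held the 3 smallest adjusted p of the members at 2 h. All 6 had 2 h libraries below every control, with a median log2 of -1.0. Col4a1 stood at 21.0, 36.9 and 38.3 RPKM in control, 12.1, 11.7 and 9.55 RPKM at 2 h and 18.4, 36.3 and 18.1 RPKM at 6 h. At 2 h the libraries were close together and below the other 6, and 6 h replicates 1 and 3 were below every control (log2 -1.45 ± 0.30 SE, adjusted p = 0.0564; at 6 h log2 -0.42, adjusted p = 0.475).

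Col4a2, the gene for its partner chain, stood at 13.5, 20.1 and 20.9 RPKM in control, 8.90, 7.78 and 6.27 RPKM at 2 h and 11.8, 21.0 and 12.4 RPKM at 6 h. The order of the groups was that of Col4a1, with a smaller 2 h fold change (log2 -1.18 ± 0.25 SE, adjusted p = 0.0569). From 2 h to 6 h the libraries did not overlap (log2 0.90, adjusted p = 0.143, the smallest of any member in that comparison). The ratio of Col4a1 to Col4a2 was 1.56, 1.83 and 1.83 in control and 1.35, 1.5 and 1.52 at 2 h, all below control (exact permutation p = 0.1, the smallest possible; 0.257 adjusted over the 18 ratio tests). The 2 genes overlap at their starts, and Col4a2 also overlaps Gm15419.

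Col15a1, a collagen of the outer face of the basement membrane, stood at 5.83, 8.05 and 8.40 RPKM in control, 3.27, 1.89 and 2.02 RPKM at 2 h and 3.97, 6.87 and 2.66 RPKM at 6 h. It shared the smallest adjusted p of any member at 2 h with Col4a1 (log2 -1.47 ± 0.30 SE, adjusted p = 0.0564). At 6 h 2 of the 3 libraries were below every control (log2 -0.74 ± 0.30 SE, adjusted p = 0.229). It overlaps Gm12426 on the opposite strand, which had the same order of groups.

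Lamb1, a laminin beta chain that anchors cells to the basement membrane, stood at 4.16, 6.49 and 6.67 RPKM in control, 3.05, 3.22 and 2.72 RPKM at 2 h and 5.11, 6.30 and 3.14 RPKM at 6 h. The 2 h libraries were below all controls (log2 -0.82 ± 0.24 SE, adjusted p = 0.116) and 6 h replicate 3 lay among them. The linker protein Nid1 and Col18a1, which yields endostatin, had 2 h values of log2 -0.65 and -0.77. Col18a1 overlaps Slc19a1. Of the 8 other basement membrane genes, none passed by limma at 2 h and 5 had a lower mean (median log2 -0.42). Lamc1, the laminin gamma chain partner of Lamb1, stood at log2 -0.84 (adjusted p = 0.0852), and Hspg2, which encodes perlecan, at -0.71.

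Collagen VI forms beaded filaments next to the fibre surface from 3 different chains, and its genes had similar orders of libraries. Col6a1 stood at 13.5, 25.3 and 25.8 RPKM in control, 8.15, 5.35 and 7.88 RPKM at 2 h and 11.6, 32.1 and 10.6 RPKM at 6 h. Col6a2 stood at 8.68, 18 and 17.5 RPKM in control, 4.90, 3.03 and 4.44 RPKM at 2 h and 5.63, 22.2 and 5.06 RPKM at 6 h. Col6a3 stood at 3.43, 8.01 and 8.02 RPKM in control, 2.27, 1.42 and 1.48 RPKM at 2 h and 2.24, 7.81 and 1.69 RPKM at 6 h. In each of the 3 genes every 2 h library was below every control, and 6 h replicates 1 and 3 were below every control as well. 6 h replicate 2 was above every control in Col6a1 and Col6a2 and just below control replicates 2 and 3 in Col6a3.

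The 2 h values of the collagen VI chains were close, at log2 -1.5, -1.67 and -1.58 for Col6a1, Col6a2 and Col6a3, with adjusted p between 0.103 and 0.129. Col6a1 over Col6a2 was higher at 2 h than in control by 0.25 (exact permutation p = 0.1, the smallest possible, and 0.257 adjusted over the 18 ratio tests). Col6a3 over Col6a1 was lower at 6 h than in control by 0.095, with the same p and adjusted p. At 6 h the values of the 3 chains were -0.37, -0.66 and -0.84, none called.

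The fibril-associated collagens sit on the surface of collagen fibrils. Col14a1 was the most abundant of the 4 in this class and stood at 0.867, 2.87 and 4.46 RPKM in control, 1.22, 0.818 and 0.877 RPKM at 2 h and 1.92, 6.28 and 1.57 RPKM at 6 h. Control replicate 1 lay within the range of the 2 h libraries, so the groups overlapped (log2 -0.96 ± 0.53 SE, adjusted p = 0.340). Col12a1, Col8a1 and Col16a1 had 2 h values between log2 -0.91 and -0.40. In Col16a1 alone of the 4 did the 2 h libraries lie below all controls.

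The matricellular proteins regulate how cells meet the matrix, and their levels in these libraries ran from Tnc, at 0.44 RPKM in its lowest library, to Sparc. Sparc, a collagen-binding glycoprotein also called osteonectin, stood at 213, 298 and 323 RPKM in control, 71.3, 63.3 and 97.0 RPKM at 2 h and 168, 312 and 91.7 RPKM at 6 h. The 2 h libraries were below all controls, and 6 h replicate 2 was within the control range (log2 -1.84 ± 0.39 SE, adjusted p = 0.0574; at 6 h log2 -0.70, adjusted p = 0.361). From 2 h to 6 h it stood at log2 1.15 ± 0.39 SE, adjusted p = 0.203, and 2 h replicate 3 was above 6 h replicate 3.

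Postn, which encodes periostin, a protein deposited in growing or injured connective tissue, stood at 2.30, 37.4 and 21.9 RPKM in control, 1.32, 1.34 and 1.44 RPKM at 2 h and 3.45, 43.2 and 2.73 RPKM at 6 h. The 3 high libraries were at least 6.34-fold above the rest, and the 2 h libraries lay closer together than those of any other group. Its SE was among the widest (log2 -2.84 ± 1.11 SE, adjusted p = 0.202). 6 h replicate 2 was 12.5-fold above the next 6 h library.

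Thbs4, a thrombospondin abundant at tendon and muscle junctions, stood at 61.0, 150.1 and 115 RPKM in control, 66.6, 48.1 and 73.3 RPKM at 2 h and 75.5, 169 and 63.5 RPKM at 6 h. Control replicate 1 lay among the 2 h libraries, and the groups overlapped (log2 -0.72 ± 0.41 SE, adjusted p = 0.359). Fn1, fibronectin, and Tnc, tenascin C, had 2 h values of log2 -1.22 and -1.14, also with overlap. Thbs1, an activator of latent TGF-beta, stood at log2 0.093 at 2 h: control replicate 1 was its lowest library at 1.41 RPKM and the other 8 lay between 3.00 and 5.26 RPKM. Fn1 overlaps Apol7d, and Tnc overlaps 8030451A03Rik.

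Of the 4 elastic fibre genes, Eln and Fbn1 had the 3 highest libraries of most members, and Fbln1 and Fbln2 did not. Eln, elastin, stood at 10.8, 16.2 and 26.2 RPKM in control, 12.4, 14.7 and 8.85 RPKM at 2 h and 14.9, 24.9 and 15.3 RPKM at 6 h. The control and 2 h libraries overlapped, with control replicate 1 low (log2 -0.49 ± 0.32 SE, adjusted p = 0.429). Fbln1, a fibulin that binds elastin and basement membranes, stood at 5.17, 7.68 and 7.98 RPKM in control, 12.4, 7.74 and 9.80 RPKM at 2 h and 9.46, 10.1 and 7.16 RPKM at 6 h. Control replicate 1 was its lowest library and 2 h replicate 1 its highest, which is not the pattern of the other members (log2 0.49 ± 0.21 SE, adjusted p = 0.239). Fbn1, the microfibril backbone fibrillin, stood at log2 -1.77 with no overlap, and Fbln2 at -0.021.

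Among the small leucine-rich proteoglycans, which coat collagen fibrils, Dcn varied least. Dcn encodes decorin and had the highest mean level of all members, 247 RPKM over the 9 libraries. It stood at 222, 242 and 286 RPKM in control, 239, 219 and 246 RPKM at 2 h and 281, 271 and 221 RPKM at 6 h. Its highest library was 1.31-fold above its lowest, the narrowest range of any member, and all groups overlapped (log2 -0.085 ± 0.13 SE, adjusted p = 0.741; at 6 h log2 0.045). Fmod, fibromodulin, stood at 70.7, 82.5 and 85.4 RPKM in control, 46.1, 41.8 and 77.0 RPKM at 2 h and 78.9, 95.5 and 77.5 RPKM at 6 h. 2 h replicates 1 and 2 were the 2 lowest libraries and 2 h replicate 3 was within the control range (log2 -0.58 ± 0.21 SE, adjusted p = 0.179).

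From 2 h to 6 h Fmod stood at log2 0.65 ± 0.21 SE, adjusted p = 0.190, with no overlap. Bgn, biglycan, stood at log2 -1.13 at 2 h and was 79.9 RPKM in 6 h replicate 2 against 22.4 and 20.9 RPKM in the other 6 h libraries. Lum, lumican, stood at log2 -0.69 at 2 h, with overlap.

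The chaperone and cross-linking genes act on collagen after its synthesis. Serpinh1, the collagen chaperone HSP47, stood at 25.8, 46.2 and 45.3 RPKM in control, 15.0, 12.5 and 12.9 RPKM at 2 h and 13.4, 65.3 and 11.5 RPKM at 6 h. The 2 h libraries and 6 h replicates 1 and 3 were all below every control, while 6 h replicate 2 was the highest library (log2 -1.46 ± 0.56 SE, adjusted p = 0.194; at 6 h log2 -0.78, adjusted p = 0.480). Without 6 h replicate 2 limma called it lower at 6 h, and its 6 h against 2 h value turned from 0.68 to -0.099.

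Lox, the lysyl oxidase that starts cross-links and is induced by hypoxia in cultured cells, stood at 2.75, 11.8 and 8.95 RPKM in control, 3.48, 3.52 and 3.58 RPKM at 2 h and 7.58, 13.4 and 3.91 RPKM at 6 h. The 2 h libraries lay together between control replicate 1 and the other controls, and all 6 h libraries were above all 2 h libraries. Against control Lox stood at log2 -0.85 (adjusted p = 0.382) at 2 h and 0.13 (adjusted p = 0.917) at 6 h. From 2 h to 6 h it stood at log2 0.98 ± 0.51 SE, adjusted p = 0.375. Loxl2, a relative that is also hypoxia-inducible, stood at 3.36, 5.45 and 6.55 RPKM in control, 1.28, 1.25 and 1.54 RPKM at 2 h and 2.44, 10.2 and 2.14 RPKM at 6 h. Those at 2 h were below all others (log2 -1.56 ± 0.47 SE, adjusted p = 0.127). Loxl1 stood at log2 -1.08 at 2 h. Lox overlaps Srfbp1, and Loxl2 overlaps several genes, of which Tnfrsf10b is on its own strand.

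Of the tissue inhibitors of metalloproteinases, Timp1 and Timp2 shared the 3 highest libraries of most members, and Timp3 did not. Timp1, which is induced in injury and inflammation, had the widest range of any member, 55.0-fold (chromosome X, 20447292 to 20451861 in mm9). It stood at 2.32, 48.9 and 17.6 RPKM in control, 3.74, 0.890 and 0.997 RPKM at 2 h and 1.29, 41.4 and 1.35 RPKM at 6 h. The 3 high libraries were at least 4.70-fold above the other 6, and control replicate 1 lay among the hypoxia libraries, so that neither comparison with control had groups apart (log2 -2.72 ± 1.34 SE, adjusted p = 0.291). 6 h replicate 2 was 30.7-fold above the next 6 h library. Timp1 overlaps Syn1.

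Timp3, the inhibitor bound to the matrix itself, was the only member with hypoxia libraries above all controls at both times (chromosome 10, 85763117 to 85812251 in mm9). It stood at 30.6, 18.3 and 22.6 RPKM in control, 39.998, 43.2 and 36.7 RPKM at 2 h and 55.0, 35.8 and 50.3 RPKM at 6 h. Control replicate 2 was the lowest library, and 6 h replicate 2 was the lowest at 6 h, although it was above all 3 controls. The mean was 23.8 ± 6.23 RPKM in control, 39.997 ± 3.25 RPKM at 2 h and 47.0 ± 10.0 RPKM at 6 h (SD, n = 3). The changes were log2 0.76 ± 0.21 SE, adjusted p = 0.0979 at 2 h and log2 0.97 ± 0.21 SE, adjusted p = 0.0541 at 6 h. Timp3 overlaps Syn3, on the opposite strand, which had the same order of groups (11.8 to 17.4 RPKM in control and 22.6 to 32.1 RPKM at 6 h), and reads may be shared.

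Timp2, an inhibitor that also helps to activate Mmp2, stood at 22.2, 29.2 and 33.1 RPKM in control, 20.2, 21.2 and 25.4 RPKM at 2 h and 26.7, 35.2 and 23.2 RPKM at 6 h. The groups overlapped in every comparison (log2 -0.32 ± 0.19 SE, adjusted p = 0.367). Mmp2, gelatinase A, and Mmp14, the membrane-bound protease that activates it, stood at log2 -0.98 and -1.32 at 2 h and -0.26 and -0.46 at 6 h, none called.

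Members spread more widely between libraries of one group than most genes did. The median within-group SD of log2(RPKM + 0.5) was 0.636 for the members and 0.185 for all tested genes, and 41 of 42 members lay above the latter, Dcn being the exception. In 28 members the SD was above 0.489, the 90th percentile of tested genes. By group, the members' median SD was 0.597 in control, 0.227 at 2 h and 0.846 at 6 h, against 0.154, 0.161 and 0.174 for tested genes. For the members the 2 h group thus had the smallest spread, and over all tested genes the control group did. Timp1, Postn and Col3a1 had the widest within-group SD, at 2.00, 1.66 and 1.39.

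**Figure D4:**
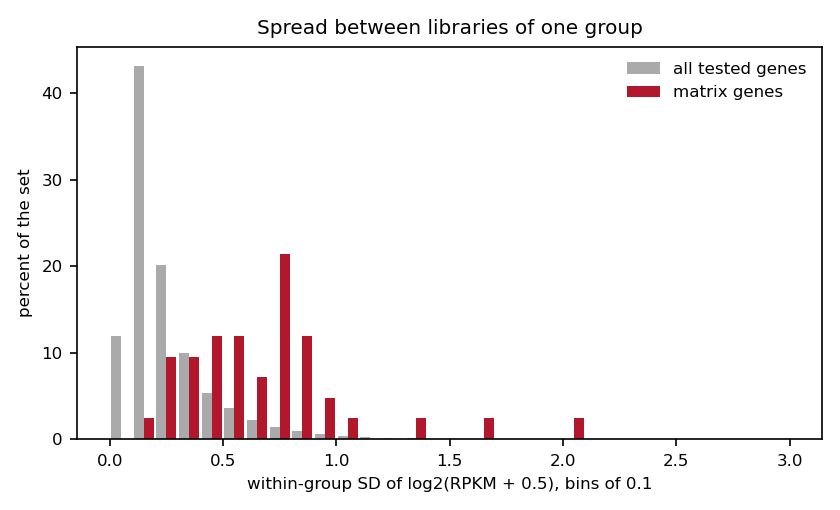
Share of genes (percent of each set, vertical axis) by their within-group SD of log2(RPKM + 0.5) in bins of 0.1 (horizontal axis), for the 13309 tested genes in grey and the 42 matrix genes in red. The matrix genes centre on 0.636 and the tested genes on 0.185.

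Which members were called depended on the libraries and weights in the fit. With library weights estimated from the data limma called 35 members lower at 2 h (11.7% of tested genes) and Timp3 higher (11.4%). At 6 h the weighted fit called 23 members lower and 1 higher, beside 1807 and 2306 of 13309 genes. With only the control and 2 h libraries in the fit it called 9, all lower (0.496%). Without 6 h replicate 2 it called 15 members lower at 2 h (1.44%). Without control replicate 1 it called Col4a1 and Col4a2 lower (0.654%), and without any other single library it called 0. The 6 h libraries do not enter the 2 h fold changes. They act on the 2 h calls and SEs only through the spread, which the fit pools over all 3 groups. The members' median SD was 0.227 at 2 h and 0.846 at 6 h. At 6 h limma called Col1a1 and Serpinh1 lower (1.59%) and Timp3 higher (1.54%) without 6 h replicate 2. Without control replicate 1 it called Timp3 higher (0.564%). In a fit without control replicates 2 and 3 and 6 h replicate 2, control replicate 1 was the only control and the members' median at 2 h was -0.29, against -1.14. These libraries were picked after the data were seen, because the members were highest in them, so a median nearer 0 follows from the choice.

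Genes acting on collagen were read from further lists, none with a gene called by limma in any comparison. Of 20 tested collagen processing genes, 17 had a lower mean at 2 h (median log2 -0.43), and 13 had the same 3 highest libraries as the members. P4ha1, the catalytic subunit of the collagen prolyl hydroxylase and a target of hypoxia-inducible factor, stood at 14.6, 15.8 and 15.6 RPKM in control, 10.5, 10.6 and 8.28 RPKM at 2 h and 8.08, 14.2 and 6.72 RPKM at 6 h. All controls were above all 2 h libraries, and 6 h replicates 1 and 3 were the lowest of all (log2 -0.63 ± 0.23 SE, adjusted p = 0.180; at 6 h log2 -0.71, adjusted p = 0.156).

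P4ha2, its isoenzyme, stood at log2 -0.30 at 2 h and -0.54 at 6 h. Plod1 and Plod2, the lysyl hydroxylases, stood at -0.45 and -0.85 at 2 h and -0.061 and -0.30 at 6 h. None of these 4 hypoxia-inducible enzymes had a higher mean at either time. Loxl4, a lysyl oxidase relative, had fold changes against control of log2 -1.04 at 2 h and -0.95 at 6 h (adjusted p = 0.0768 and 0.0948).

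Of 29 other interstitial matrix genes, 27 had a lower mean at 2 h (median log2 -0.68) and 19 shared the 3 highest libraries. Dpt and Mfap5 are counted again among the fibroblast markers below, and Chad, Comp and Kera among the tendon markers. Col11a1 stood at log2 -1.13 and Kera, the tendon and corneal proteoglycan keratocan, at -1.37 at 2 h. Prelp, a proteoglycan that ties basement membranes to collagen, stood at 9.41, 13.2 and 14.8 RPKM in control, 9.55, 10.8 and 11.5 RPKM at 2 h and 7.11, 7.43 and 6.77 RPKM at 6 h. All 6 h libraries were below all others, 6 h replicate 2 included. At 6 h against control Prelp stood at log2 -0.75 ± 0.15 SE, adjusted p = 0.0518.

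All 11 tested genes of other proteases and inhibitors had a lower mean at 2 h (median log2 -0.55), among them Ctsk, cathepsin K, at -1.45. Of 21 matrix receptors 17 had a lower mean (median -0.33), among them the integrin subunit Itgav at -0.44 and the collagen receptor Ddr2 at -0.54. Of 19 TGF-beta signalling genes 13 had (median -0.21), with the receptor Tgfbr2 at -0.70 and the ligand Tgfb2 at -0.63. Tgfbr3, a co-receptor, stood at log2 0.67 ± 0.15 SE, adjusted p = 0.0655 at 6 h, and all 3 of its highest libraries were those at 6 h.

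Macrophage markers moved with the matrix genes, and their part in the result was not tested. The 13 markers summed to 48.1, 183 and 209 RPKM in control, 73.0, 59.3 and 62.4 RPKM at 2 h and 69.8, 312 and 56.2 RPKM at 6 h. In 12 of the 13 the 3 highest libraries were those of the matrix genes, and no marker was at 0: Emr1, which encodes F4/80, ranged from 0.54 to 4.58 RPKM and Lyz2 from 19.7 to 146 RPKM. Cell division genes summed to 22.9 RPKM in 6 h replicate 2 and to between 3.28 and 8.41 RPKM elsewhere.

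The 9 fibroblast markers in the table summed to between 423 and 609 RPKM in control, 515 and 593 RPKM at 2 h and 445 and 643 RPKM at 6 h. Most of this sum was Gsn, gelsolin, at 278 to 445 RPKM (log2 0.32 at 2 h), while the other 8 markers had a lower mean at 2 h and the median of all 9 was log2 -0.55, none called. Their part in the result was not tested. In 5 of them, Pdgfra, Dpt, Clec3b, Pi16 and Mfap5, the 3 highest libraries were those of the matrix genes. Tendon markers summed to between 61.5 and 73.1 RPKM in control, 28.6 and 65.7 RPKM at 2 h and 50.5 and 81.4 RPKM at 6 h, with 3 of 7 in that order. Endothelial markers summed to between 76.1 and 112 RPKM over all libraries, and 0 of 11 shared the 3 highest libraries, as did 0 of 7 mural and smooth muscle cell markers. Kdr, the VEGF receptor of endothelial cells, was the 1 marker that limma called, lower at 2 h (log2 -1.12, adjusted p = 0.0486).

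**Figure D5:**
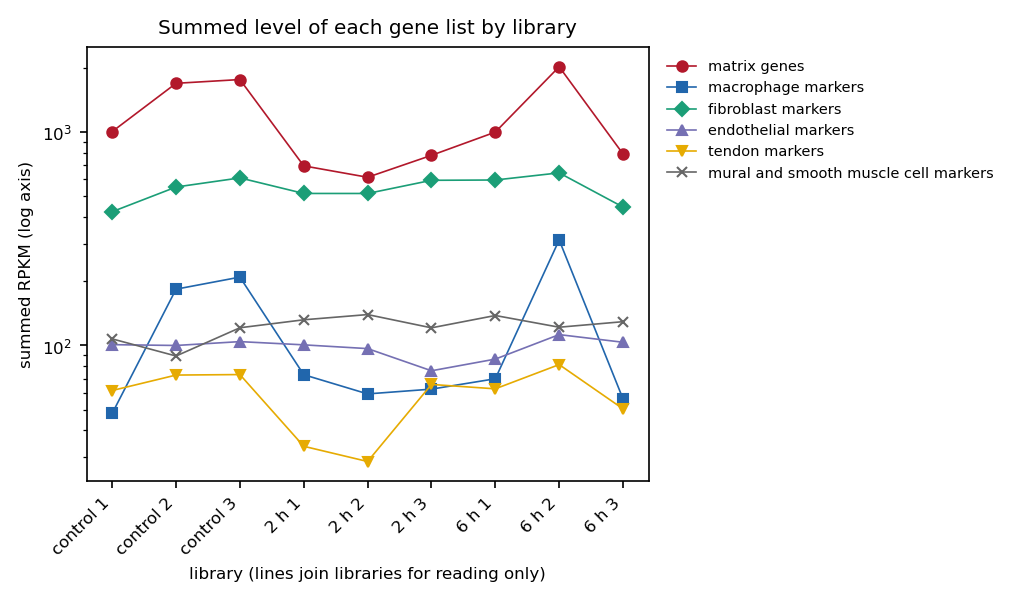
Summed RPKM (vertical log axis) of the 42 matrix genes and of 5 marker lists in each of the 9 libraries (horizontal axis; lines join libraries for reading only). The matrix and macrophage sums peak in control replicates 2 and 3 and in 6 h replicate 2, while the endothelial sum stays between 76.1 and 112 RPKM.

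The authors' deposited table had 0 members at an adjusted p under 0.05 at either time, and 0 genes at 2 h and 6 genes at 6 h in all. At a raw p under 0.05, the authors' deposited table had 29 of the 42 members at 2 h and 1 at 6 h, against 2624 and 2373 of 13722 genes.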

How the data were processed

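Paired-end TruSeq libraries of plantaris RNA were read on an Illumina machine, per the labels' protocols. FastQC, TopHat2, Bowtie2, SAMtools, bedtools and the build mm9 appear in the submitters' processing notes, with no version of any tool. Which tool counted reads, and whether by strand, is not given in the sources used here. RPKM per gene and library were deposited by the authors, a unit recognised from the values. They also deposited each gene's largest raw count and their own fold changes and p-values against control, whose test is not stated.

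Low RPKM values fall on whole steps, from which reads plus 1 were recovered. The recovered numbers were whole, within 0.1 read, for 100% of 40180 values below 500 reads. What a recovered read stands for is not known, a limit that also applies to edgeR and DESeq2 below. Limma 3.58.1 in R 4.3.3 was fitted to log2(RPKM + 0.5) of all 9 libraries with a mean-variance trend, over the 13309 genes whose mean was 0.5 RPKM or more. P-values were adjusted within a comparison by Benjamini-Hochberg, with a threshold of 0.05. A fold change on this scale understates the change of genes near 0.5 RPKM. The fit was also run on simulated data with independent noise of equal spread in all groups. The members here moved together by library and spread unequally between groups, so that run does not bear on their calls. Alternatives were edgeR 4.0.16 quasi-likelihood and DESeq2 1.42.0 on the recovered counts, other pseudocounts, filters and scalings, library weights, a replicate block and each library left out. A fit without control replicates 2 and 3 and 6 h replicate 2 was added after the data were seen. All 36 pairs of libraries differed by more than counting noise, with a chi-square per gene from 66.6 to 471, so no library was counted as a copy of another.

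Groups and replicate numbers came from the sample titles. The members, the gene lists and the tests were chosen with earlier results of these data known. Members given in every library are the 3 with the smallest p per comparison, the 6 with the highest mean, the 5 widest and 5 narrowest between libraries, the highest of each role, the partner chains of collagens I, IV and VI, and the hypoxia-inducible Lox and Loxl2. Of the other lists, the 2 genes with the smallest p per comparison, called genes, P4ha1, P4ha2, Plod1 and Plod2 may be named. Where genes are said to overlap, reads may be shared. Promoter sequences are RefSeq's on GRCm38.p6. No coordinates were converted between builds.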

Additional observations from a re-analysis of the deposited data

How the results depend on the processing

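The main fit did not pair the samples by replicate number. Same-numbered libraries had correlations of their deviations between -0.331 and 0.493 over 9 pairs, and other-numbered libraries between -0.596 and 0.398. With 3 libraries per group these values cannot exclude pairing. With the replicate block limma called 1 gene at 2 h, 43 at 6 h and 2 from 2 h to 6 h, against 103, 213 and 19, and 0 members in each. Genes called at 2 h numbered 199 with a filter at 2 RPKM, 29 without the trend, 3068 with library weights, 157 by edgeR and 1381 by DESeq2. At 6 h they numbered 4113 with weights, 73 with only the groups compared and 1129 by DESeq2. From 2 h to 6 h they numbered 11 rescaled by the median ratio, 6 without the trend, 119 with weights, 3 with only the groups compared, 80 by edgeR and 893 by DESeq2. Without control replicates 2 and 3 and 6 h replicate 2, an alternative added after the data were seen that leaves 1 control library, assumed to vary like the other groups, they numbered 0, 0 and 2, with 1578 at an unadjusted p under 0.05 by limma at 2 h. Leaving out each library in turn gave 0 to 396 genes at 2 h, 10 to 417 at 6 h and 0 to 9 from 2 h to 6 h.

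With the filter at 2 RPKM, which kept 39 of the 42 members, 3 members were called at 2 h, all lower. Beside them 62 genes were called lower and 137 higher in all. Rescaled, 2 members were called, all lower, beside 69 genes lower and 69 higher. The number of genes tested in these settings is not given here, so no share is stated for them. With weights the members called at 2 h numbered 36, 35 lower (11.7% of tested genes) and 1 higher (11.4%). They numbered 9 with only the groups compared, all lower (0.496%), and 3 by edgeR, all lower (0.624%). By DESeq2 they numbered 18, 17 lower (5.24%) and 1 higher (5.81%). Without each library in turn they numbered 0 to 15, beside 0 to 396 genes. At 6 h they numbered 24 with weights, 23 lower and 1 higher, beside 1807 genes lower and 2306 higher of 13309. They numbered 1 by DESeq2, higher (4.02%), and 0 to 3 without each library, beside 10 to 417 genes. From 2 h to 6 h they numbered 6 by DESeq2, all higher (3.48%). The members' median ranged from -1.56 to -0.86 at 2 h, from -0.70 to 0.019 at 6 h and from 0.36 to 1.12 from 2 h to 6 h without each library, and was -0.29 at 2 h without the 3 libraries, a shift that follows from picking libraries by their high members. The cause of the other shifts was not tested.

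Signs were followed only for the members given in every library, and turned as follows, in log2. Over all 42 members, those with a fitted change below 0 at 2 h numbered 39 as reported and 30 without the 3 libraries. At 6 h they numbered 30 and 21, and from 2 h to 6 h 1 and 5. Without the 3 libraries at 2 h, Col14a1 was 0.097, Dcn 0.077, Eln 0.12, Lox 0.31 and Thbs4 0.016; from 2 h to 6 h Serpinh1 was -0.099 and Timp1 -0.19; at 6 h Postn was 0.35 and Thbs4 0.18. At 6 h library weights gave Col14a1 -0.79, Dcn -0.081, Eln -0.58, Fmod -0.071, Lox -0.32 and Timp2 -0.27. At 6 h rescaling gave Dcn -0.0018 and Timp2 -0.042, edgeR gave Dcn -0.0098, Eln -0.0099 and Timp2 -0.052, and DESeq2 gave Dcn -0.0026, Eln -0.0032 and Timp2 -0.045. Without each library in turn, Dcn ranged from -0.17 to 0.017 at 2 h, and Fbln1 from -0.31 to 0.015, Serpinh1 from -0.099 to 1.13 and Timp1 from -0.19 to 2.09 from 2 h to 6 h. At 6 h Col14a1 ranged from -0.34 to 0.59, Col5a1 from -1.19 to 0.12, Dcn from -0.036 to 0.15, Eln from -0.20 to 0.42, Fmod from -0.019 to 0.13, Lamb1 from -0.45 to 0.0040, Lox from -0.45 to 0.55, Loxl2 from -0.97 to 0.043, Postn from -1.90 to 0.055, Thbs4 from -0.55 to 0.15 and Timp2 from -0.16 to 0.14.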

Other observations

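Other cell types' markers differed between libraries in ways the matrix genes did not follow. Nerve and Schwann cell markers summed to 508 RPKM in 6 h replicate 1 and to between 37.4 and 58.4 RPKM in the other 8 libraries. Adipocyte markers were also highest there, at 74.9 RPKM, against 3.88 to 20.5 RPKM elsewhere. Slow muscle fibre markers summed to 5716 RPKM in 6 h replicate 3 and to between 435 and 1193 RPKM in the others. The 2 satellite cell markers in the table, Myf5 and Chrdl2, summed to between 1.68 and 3.35 RPKM.

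Some members are neighbours in the genome. Col3a1 and Col5a2 lie on chromosome 1 with 24614 bases between them, Dcn and Lum on chromosome 10 with 47357 bases between them, and Col6a1 and Col6a2 on chromosome 10 with 85161 bases between them, in mm9. Dcn and Lum did not share an order of libraries: Lum had the 3 high libraries of most members and ranged 3.30-fold, whereas Dcn ranged 1.31-fold.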
